A study of Mus musculus with 25 samples.

Results

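The response of *soleus* muscle to acute treadmill exercise was measured by RNA sequencing in mice lacking *Dnmt3a* in muscle (mD3AKO). The results here are for the mD3AKO mice, chosen by genotype, and they rest on 13 of the 25 libraries of the series, 1 library per mouse. The mice were C57BL/6 males and females of 12 weeks. All carried Dnmt3a flox/flox alleles, with exon 19 between loxP sites, and the mD3AKO mice also carried the mCK-Cre Tg transgene, which places Cre under the muscle creatine kinase promoter. This promoter acts late in muscle differentiation and in heart as well as in skeletal muscle, and the RNA of all other cells of the muscle is counted here together with that of its fibers. The WT mice, used below for comparison, had the same floxed alleles without Cre (3 males and 2 females at rest, 3 males and 4 females after exercise). The 6 exercised mD3AKO mice (3 male, 3 female) ran for 30 minutes at 16 m/min on a 5% incline and were killed 60 minutes later. The 7 rested mD3AKO mice (4 male, 3 female) had been familiarized with the treadmill in the same way and received a sham session. The question is which transcripts of mD3AKO muscle differ between rest and 60 minutes after running.

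Running sets off several well-known signals in a working muscle. Calcium, cyclic AMP and stress kinases switch on immediate early genes within minutes, and many of these encode transcription factors such as the FOS and NR4A families. The coactivator PGC-1 alpha, encoded by *Ppargc1a*, is induced by exercise and is known for driving mitochondrial gene expression. Heat and unfolded proteins induce chaperones, circulating glucocorticoids induce their own set of target genes, and the vessels of the muscle respond to changes in flow. The *soleus* is a slow, oxidative muscle that holds all of these cell types.

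Between 22671457 and 37145467 reads were counted on genes in the 13 libraries. The smallest library was that of mouse 15, a male at rest, in which ribosomal RNA took 39.5% of counts, against 8.19% to 11.8% in the other 12 libraries. 7 genes were more than 10 times higher in this library than in any other, and 0 of them were called. The count of called genes, the count of separate groups and the overlap with WT are given with and without mouse 15. So are the counts of the gene lists described in the text, where they differ. *Dnmt3a*, the targeted gene, lay between 34.6 and 53.9 CPM (a gene's counts scaled to the size of its library) in the rested mD3AKO mice (median 42.1) and between 34.7 and 43.0 (median 37.3) in the exercised ones. The WT mice lay between 93.4 and 130.5, above all mD3AKO mice, and the change of *Dnmt3a* after exercise in mD3AKO mice did not pass the test (log2 fold change -0.19, adjusted p = 0.372). All 5 slow muscle fiber markers were found, with summed levels of 18590 to 35290 CPM at rest and 19420 to 28980 after exercise, and 0 of them passed the test. In such bulk samples, fewer cells of a type and less RNA per cell cannot be told apart.

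Exercise changed 614 of the 15408 genes tested in mD3AKO *soleus* (edgeR's quasi-likelihood test, adjusted p under 0.05), which is 3.98% of them. Of these, 394 rose (2.56% of the genes tested) and 220 fell (1.43%), whereas scaling by library totals alone gave 193 rises and 53 falls. Without mouse 15, 616 genes were called (4% of 15388), of which 377 rose and 239 fell, and 547 genes were called in the same direction with and without this mouse. The 3.98% called over all genes tested is the share to set beside each gene list below. Rises were larger than falls: 157 genes rose and 42 fell by at least 1 on the log2 scale, and 15 rose and 0 fell by at least 3. The median log2 fold change was 0.85 among the genes that rose and -0.68 among those that fell, against -0.0053 over all genes tested. Groups that did not overlap, with every exercised mouse above every rested mouse, were found for 231 of the 394 genes that rose, and this held for 1.6% of all genes tested. Every exercised mouse was below every rested mouse for 100 of the 220 genes that fell, and for 0.707% of all genes tested. Without mouse 15 the groups were separate for 253 of the 377 rises and 139 of the 239 falls, beside 1.83% and 1.1% of all genes tested. The plot of log2 fold change by expression level shows these calls.

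**Figure D1:**
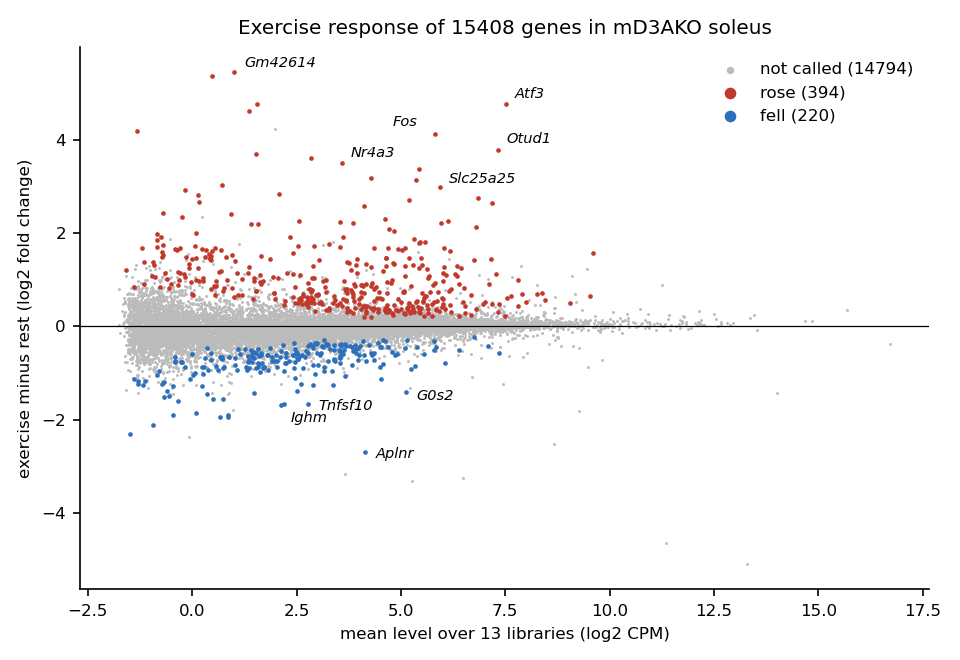
Exercise minus rest (log2 fold change) against the mean level over 13 libraries (log2 CPM) for 15408 genes in mD3AKO *soleus*, 1 point per gene, with called genes in colour. The 394 rises reach a log2 fold change of 5.47 and the 220 falls reach -2.69, and the points farthest below 0 are grey, genes that did not pass the test.

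Immediate early transcription factors formed the list with the largest rises. 13 of its 27 members tested rose and 0 fell, with a median log2 fold change of 1.10 over all 27. The count of rises was 19 in males alone, 5 in females alone and 12 to 17 when single mice were left out. The NR4A orphan nuclear receptors rose together. *Nr4a3* was at 1.58, 1.98 and 3.34 CPM (lowest, median and highest) in the rested mice and at 13.8, 19.9 and 35.8 CPM in the exercised mice. *Nr4a2* was at 0.62, 0.906 and 2.11 CPM at rest and at 4.49, 11.6 and 29.0 CPM after exercise. *Nr4a1* was at 12.6, 24.9 and 37.8 CPM at rest and at 66.2, 108.7 and 191.2 CPM after exercise. For all 3 receptors every exercised mouse was above every rested mouse. The log2 fold changes were 3.50 ± 0.25 (SE) for *Nr4a3* (adjusted p = 9.35e-07), 3.63 ± 0.43 for *Nr4a2* (adjusted p = 0.000114) and 2.27 ± 0.31 for *Nr4a1* (adjusted p = 0.000441).

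Cyclic AMP acts on transcription through CREB, which binds the element TGACGTCA and its half-site TGACG, and the NR4A promoters are shown because each holds several half-sites, a choice made after the matches were seen. The promoter windows reach from 250 bases before to 50 bases after each gene's start and come from RefSeq (GRCm38.p6), in which 11 of the 15 largest rises were matched by symbol. A half-site (TGACG or its reverse complement CGTCA, both strands, hits inside a full element included) stood in 20.8% of all 32851 promoters and in 29.2% of those of tested genes that were not called. At least 4 half-sites stood in 76 of all promoters (0.231%). *Nr4a1*, *Nr4a2* and *Nr4a3* each held 4 of them before the start, and *Fos* held 2. The stretches that hold them are given in the direction of transcription, with the half-sites in capitals, for *Nr4a1* (chr15:101266596-101266830, plus strand), *Nr4a2* (chr2:57124090-57124223, minus strand), *Nr4a3* (chr4:48045055-48045182, plus strand) and *Fos* (chr12:85473741-85473848, plus strand).
Nr4a1: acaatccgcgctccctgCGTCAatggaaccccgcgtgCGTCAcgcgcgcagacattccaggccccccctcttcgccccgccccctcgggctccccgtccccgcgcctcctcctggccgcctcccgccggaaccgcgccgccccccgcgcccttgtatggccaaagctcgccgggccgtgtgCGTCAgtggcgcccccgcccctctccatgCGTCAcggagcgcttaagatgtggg
Nr4a2: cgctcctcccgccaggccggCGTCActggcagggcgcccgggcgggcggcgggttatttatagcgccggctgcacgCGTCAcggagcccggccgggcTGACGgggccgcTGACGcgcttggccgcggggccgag
Nr4a3: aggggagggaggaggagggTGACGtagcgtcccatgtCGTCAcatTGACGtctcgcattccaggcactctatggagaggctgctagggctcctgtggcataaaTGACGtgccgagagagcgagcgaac
Fos: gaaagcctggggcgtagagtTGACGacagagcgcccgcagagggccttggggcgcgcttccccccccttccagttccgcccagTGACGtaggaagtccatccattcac

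A match describes the letters of these windows and is no measurement of CREB. Motif shares are not compared between called and other genes, because the check is void: only 72.8% of the genes that rose, 71.4% of those that fell and 71.3% of the others had a promoter in the table, under the 80% set as the least for such a check.

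The FOS and stress-responsive factors rose further in some mice than in others. *Atf3*, a factor of the stress response, was at 6.85, 12.9 and 24.1 CPM at rest and at 19.4, 340.2 and 805.9 CPM after exercise, and rose by 4.77 ± 0.71 on the log2 scale (adjusted p = 0.000925). *Fos*, a subunit of the AP-1 factor, was at 4.31, 6.27 and 8.62 CPM at rest and at 7.38, 72.4 and 256.1 CPM after exercise, and rose by 4.12 ± 0.68 (adjusted p = 0.00212). Neither was called in females alone (edgeR, adjusted p = 0.369 for *Atf3* and 0.46 for *Fos*), with log2 fold changes of 5.71 in males and 2.78 in females for *Atf3* and of 5.16 and 1.76 for *Fos*, differences between the sexes that did not pass the test. In both genes 1 exercised mouse lay inside the range at rest, and the other 5 lay above it, at 48.7 CPM or more for *Atf3* and at 17.5 CPM or more for *Fos*. *Fosb*, another AP-1 subunit, was at 0.227, 0.317 and 0.579 CPM at rest and at 0.262, 2.17 and 8.39 CPM after exercise, with overlapping groups (3.03 ± 0.65, adjusted p = 0.0138), and was not called by limma voom (adjusted p = 0.192) or in females alone (adjusted p = 0.771). *Csrnp1*, a cysteine- and serine-rich nuclear protein, was separate between the groups: 3.08, 3.91 and 5.39 CPM at rest against 15.1, 36.5 and 58.6 CPM after exercise (3.19 ± 0.30, adjusted p = 1.04e-05). Its exons overlap those of a gene on the other strand, and whether counting used the strand is not given in the sources used here. *Fosl2*, *Maff*, *Mafk*, *Klf6*, *Ier5* and *Btg2* also rose, by 0.89 to 2.66 on the log2 scale, though *Ier5* lost its call in 7 of the 13 fits that left out 1 mouse. *Jun*, the partner of FOS in AP-1, had a log2 fold change of 1.10 (adjusted p = 0.0563) and *Myc*, a growth factor-induced transcription factor, one of 0.97 (adjusted p = 0.132), and neither passed the test. The plot of the largest rises and falls shows each mouse.

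**Figure D2:**
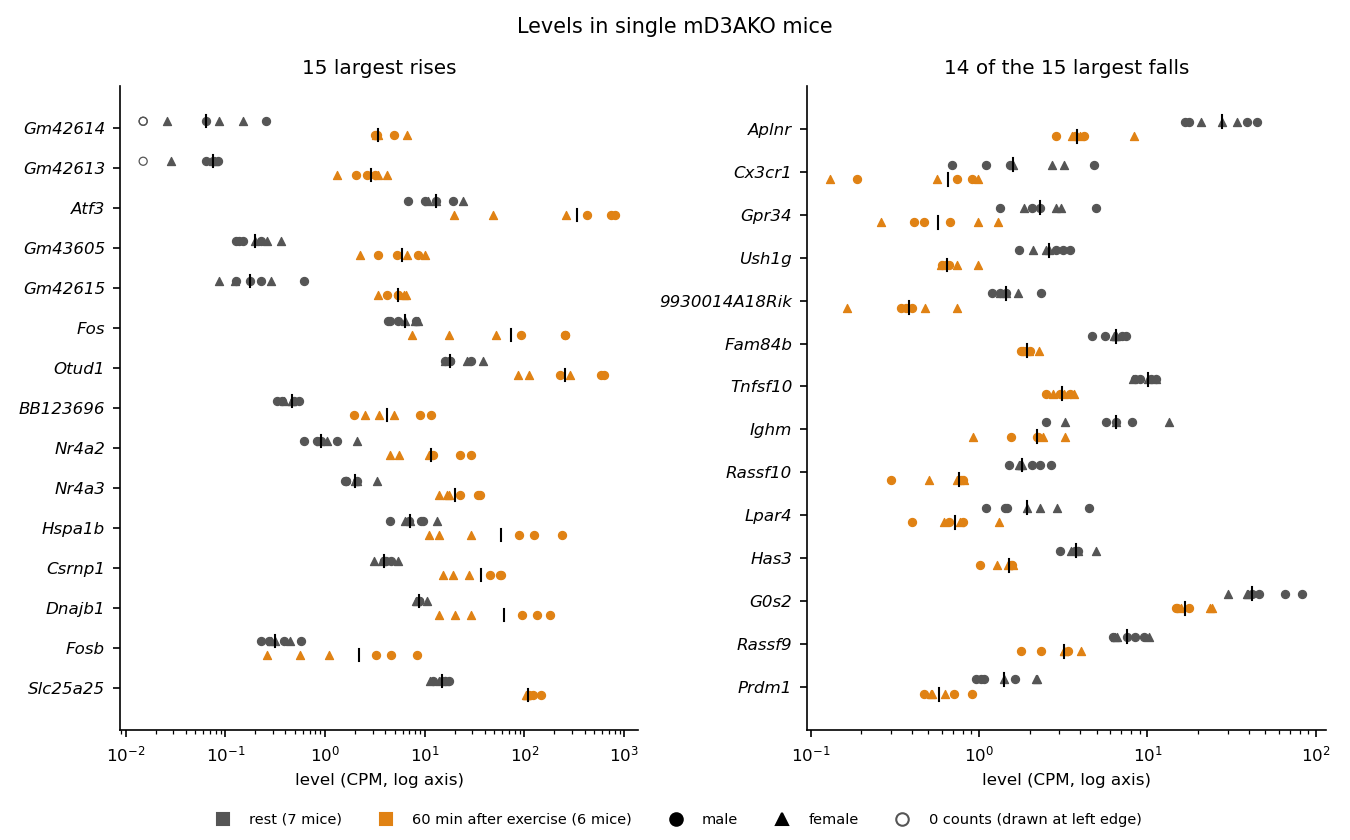
Levels (CPM, log axis) of the 15 largest rises and 14 of the 15 largest falls in single mD3AKO mice, grey at rest (7 mice) and orange 60 minutes after exercise (6 mice), circles for males, triangles for females, vertical bars for group medians and open circles for libraries without counts. *Slc25a25* is tightly grouped in both groups, whereas *Atf3*, *Fos* and *Hspa1b* spread widely after exercise, with the females at the lower end.

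The 2 largest rises of called genes lay in the *Ppargc1a* locus. *Ppargc1a* (chr5:51454250-51567726, mm10, minus strand) was at 33.8, 37.7 and 57.3 CPM at rest and at 53.4, 68.1 and 109.4 CPM after exercise, a rise of 0.94 ± 0.17 on the log2 scale (adjusted p = 0.00445). The overlap came from mouse 15 alone, at 57.3 CPM: the other 6 rested mice were at 33.8 to 38.3 CPM, below every exercised mouse. 4 short genes without a known function, *Gm42613*, *Gm42614*, *Gm42615* and *Gm43605*, lie inside the span of *Ppargc1a* and share no annotated exon with it. *Gm42614* held 0 to 9 reads in each rested library (21 in all) and 94 to 204 in each exercised library (774 in all), a ratio of rates of 45.8 (exact 95% interval of 29.8 to 74.4, counting error only). *Gm42613*, on the opposite strand of *Ppargc1a*, held 0 to 3 reads in each rested library (15 in all) and 43 to 128 in each exercised one (525 in all), a ratio of 43.5 (26.1 to 78.3). *Gm43605* and *Gm42615* had ratios of 27.3 and 25.8. For all 4 every exercised mouse was above every rested mouse, and edgeR's quasi-likelihood test called each with an adjusted p between 3.23e-07 and 1.96e-06. Reads of unspliced *Ppargc1a* RNA from this span and reads of separate transcripts cannot be told apart in these gene counts. The promoter of *Ppargc1a* is shown because the coactivator is a classical target of CREB, and its window held 1 half-site, in capitals (chr5:51567730-51567814, minus strand).
Ppargc1a: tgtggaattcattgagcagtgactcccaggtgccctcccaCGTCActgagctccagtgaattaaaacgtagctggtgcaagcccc

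Of the 13 PGC-1 coactivators and partners tested, only *Ppargc1a* and *Ppara* were called. Both were called in females alone (adjusted p = 0.0361 and 0.0185) and neither in males alone (adjusted p = 0.0552 and 0.0685), with log2 fold changes of 0.79 in females and 1.07 in males for *Ppargc1a* and of 1.24 and 0.87 for *Ppara*. *Ppara*, the nuclear receptor that drives fatty acid oxidation genes, was at 24.6, 33.7 and 42.3 CPM at rest and at 49.0, 68.5 and 92.0 CPM after exercise, with separate groups and a rise of 1.04 ± 0.15 (adjusted p = 0.000535). *Ppargc1b*, the related coactivator, had a log2 fold change of -0.22 (adjusted p = 0.281). 0 of 41 nuclear genes of oxidative phosphorylation were called, with a median log2 fold change of 0.06, and 0 of 27 genes of fuel selection and fatty acid use were called. *Pdk4*, a kinase that closes pyruvate dehydrogenase, ranged from 477.2 to 2676 CPM at rest and from 684.8 to 1476 CPM after exercise, so that the groups overlapped widely.

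*Slc25a25*, which encodes a calcium-regulated ATP-Mg/phosphate carrier of the inner mitochondrial membrane, was the tightest of the large rises. It was at 11.4, 15.0 and 17.3 CPM at rest and at 104.1, 108.7 and 145.6 CPM after exercise. All exercised mice lay far above all rested mice, and the rise of 3.00 ± 0.11 on the log2 scale had an adjusted p of 9.72e-10. Its exons overlap those of *Naif1* on the other strand. Of its 3 promoters, 1 held the full element TGACGTCA (both strands, as found in 1.79% of all promoters and 2.83% of those of tested genes that were not called), 150 bases before the start, and is shown with the element in capitals (chr2:32424169-32424256, minus strand). No other of the 11 matched largest rises held the full element in its window.
Slc25a25: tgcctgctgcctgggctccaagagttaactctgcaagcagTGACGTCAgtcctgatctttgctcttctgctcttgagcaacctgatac

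Of 23 heat shock chaperones tested, 9 rose, 0 fell and 14 were not called, with a median log2 fold change of 0.44. The count of rises was 10 without mouse 15, 2 in females alone and 15 in the fit of all 25 libraries. *Dnajb1*, the HSP40 cochaperone that stimulates HSP70, was at 8.18, 8.75 and 10.5 CPM at rest and at 13.9, 61.9 and 180.0 CPM after exercise. All exercised mice were above all rested mice, with a rise of 3.15 ± 0.51 (adjusted p = 0.002). *Hspa1b* and *Hspa1a*, which encode the inducible HSP70, were at 7.05 and 8.8 CPM at the median at rest and at 58.1 and 62.5 CPM after exercise, and they ranged from 11.0 to 236.3 CPM and from 11.8 to 138.7 CPM in the exercised mice. Their log2 fold changes were 3.37 ± 0.62 (adjusted p = 0.00486) and 2.73 ± 0.53 (adjusted p = 0.00774), and the lowest exercised mice lay inside the range at rest. Neither was called by limma voom (adjusted p = 0.0529 and 0.0559) or in females alone (adjusted p = 0.567 and 0.803). *Hsp90aa1*, an HSP90, rose by 1.30 ± 0.27 and *Hspa5*, the HSP70 of the endoplasmic reticulum, by 0.73 ± 0.11, both with separate groups. Exercised mouse 19, a male, was far above the other exercised mice for the small chaperones *Hspb1* (998.6 CPM against 133.7 to 309.1) and *Cryab* (3318 against 1557 to 1698), which were not called, and 8 chaperones rose without this mouse. The 2 *Hspa1* genes are near-identical copies, so their values are uncertain one by one. How reads that match both were counted is not given in the sources used here. Their promoter windows hold 296 identical bases of 300. The heat shock element GAANNTTC was found in windows of *Hspa1a*, *Hspa1b*, *Hsph1* and *Dnaja1*, and in none of those of *Dnajb1*, *Dnajb4* and *Hspa5*, the other called chaperones with a promoter in the table. *Hsph1* lost its call in 11 of the 13 fits that left out 1 mouse. Among the 11 matched largest rises, 1 held it, *Hspa1b*. The same stretch of both *Hspa1* promoters is shown once, chosen after the matches were seen, with this element (both strands, found in 7.86% of all promoters and 5.76% of those of tested genes that were not called) in capitals (*Hspa1a*, chr17:34972213-34972300, and *Hspa1b*, chr17:34959295-34959382, both on the minus strand).
Hspa1a: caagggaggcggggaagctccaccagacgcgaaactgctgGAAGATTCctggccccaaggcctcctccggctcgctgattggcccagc

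Glucocorticoid-responsive genes rose more evenly: 14 of 23 rose and 0 fell, with a median log2 fold change of 0.70, and 13 rose without mouse 15 and 8 in females alone. *Ddit4*, an inhibitor of mTORC1, was at 4.01, 7.37 and 17.3 CPM at rest and at 34.9, 41.1 and 57.2 CPM after exercise (2.31 ± 0.25, adjusted p = 4.21e-05). *Cebpd*, a transcription factor of the acute phase, was at 4.27, 4.59 and 7.51 CPM at rest and at 16.8, 18.6 and 24.7 CPM after exercise (1.91 ± 0.15, adjusted p = 1.76e-06). *Tsc22d3*, the glucocorticoid-induced leucine zipper, was at 54.1, 81.3 and 97.1 CPM at rest and at 187.6, 213.2 and 258.0 CPM after exercise (1.44 ± 0.12, adjusted p = 3.29e-06). In all 3 genes the groups were separate, and this was so for 13 of the 14 that rose. Over all genes, groups were separate for 231 of the 394 rises and for 1.6% of genes tested. The metallothioneins *Mt1* and *Mt2*, which bind zinc, rose by 1.67 ± 0.24 and 2.85 ± 0.43. *Sgk1*, a kinase of ion transport, rose by 1.43 ± 0.17, and *Errfi1*, an inhibitor of the EGF receptor, by 1.82 ± 0.16. *Fkbp5*, a cochaperone of the glucocorticoid receptor, rose by 0.75 ± 0.18 (adjusted p = 0.031) and was not called in 9 of the 13 fits that left out 1 mouse, that without mouse 15 included (adjusted p = 0.0546). The list also holds *Trim63*, the ubiquitin ligase MuRF1, and *Foxo1*, its regulator, which rose by 0.65 ± 0.12 and 1.18 ± 0.15 and were the only called members among 21 atrophy ligases, FoxO factors and autophagy genes. 3 of 19 core clock genes rose: *Per1*, a glucocorticoid target as well, by 1.88 ± 0.29, *Per2* by 1.32 ± 0.34, and *Nfil3*, a repressor of D-box genes, by 2.05 ± 0.28. *Per2* lost its call in 10 of the 13 fits that left out 1 mouse. Leaving out single mice gave 2 to 4 rises in this list. The rested mice differed among themselves in clock genes: mice 8, 12 and 15 were at 24.7 to 26.6 CPM for *Per1*, 12.2 to 15.9 for *Per2* and 10.9 to 12.5 for *Arntl*, the partner of CLOCK, and mice 2, 7, 21 and 24 at 6.89 to 17.5, 3.49 to 6.62 and 21.7 to 42.8 CPM. Every exercised mouse was above all of them for *Per1* (46.1 CPM or more) and, narrowly, for *Per2* (16.2 CPM or more), and the part of these differences at rest in the size of the rises was not tested.

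*Irs2*, an adaptor of the insulin receptor, was at 17.0, 30.9 and 42.9 CPM at rest and at 112.3, 173.6 and 367.0 CPM after exercise, with separate groups (2.76 ± 0.27, adjusted p = 1.46e-05). Only it and *Rheb*, the activator of mTORC1 (0.24, adjusted p = 0.0384, not called in 10 of the 13 fits that left out 1 mouse), were called among 22 genes of insulin and IGF signalling. *Hk2*, the hexokinase that traps glucose in muscle, was at 357.7, 464.3 and 524.1 CPM at rest and at 510.5, 620.8 and 752.3 CPM after exercise, and was the only gene called of 23 in glucose uptake and glycogen (0.51 ± 0.10, adjusted p = 0.0103). Its groups overlapped through mouse 15 alone, the other rested mice being at 483.9 CPM or less. This 1 call is 4.35% of the glucose list, near the 3.98% called over all genes tested. *Sik1*, a kinase that restrains CREB coactivators, rose by 2.21 ± 0.15 with separate groups. 4 of 18 amino acid transporters rose and 0 fell, led by *Slc38a2*, a glutamine carrier, at 1.13 ± 0.21, and 1 rose under library totals and 0 in females alone. 5 of 14 Kruppel-like factors rose, with *Klf4*, a factor of endothelium and epithelium, at 1.69 ± 0.14 and the flow-sensitive *Klf2* at 1.15 ± 0.14, and 3 rose under library totals and 1 in females alone. *Ccn2*, a matrix protein induced by mechanical load, was at 31.1, 44.0 and 51.8 CPM at rest and at 148.6, 181.2 and 256.3 CPM after exercise (2.14 ± 0.13, adjusted p = 2.86e-07), with separate groups. *Bcl2l1*, which protects cells from apoptosis, was also separate and rose by 1.46 ± 0.08. Of 14 genes of the BCL2 family tested, 3 rose (*Bcl2l1*, *Bcl2l11* and *Mcl1*) and 1 fell (*Bmf*), with a median log2 fold change of -0.03. *Bmf* lost its call in 4 of the 13 fits that left out 1 mouse. Under library totals 3 rose and 0 fell, and in females alone 1 rose. *Otud1*, a deubiquitinase, was among the largest rises, at 16.0, 18.1 and 38.5 CPM at rest and 86.8, 257.7 and 625.4 CPM after exercise (3.79 ± 0.45, adjusted p = 0.000102). *BB123696*, a transcript without a known function, was at 0.327, 0.461 and 0.551 CPM at rest and 1.97, 4.21 and 11.5 CPM after exercise, the remaining 1 of the 15 largest rises (3.69 ± 0.40, adjusted p = 4.73e-05). The plot of 20 gene lists sets these groups beside each other.

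**Figure D3:**
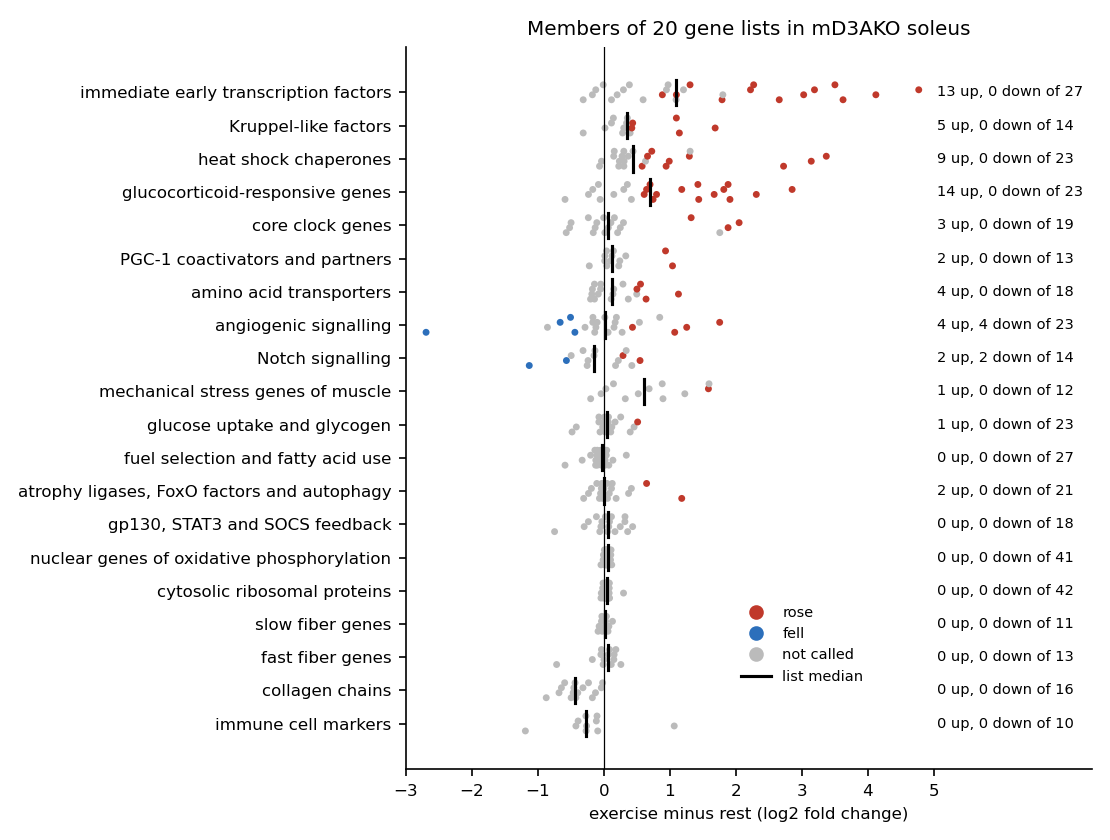
Exercise minus rest (log2 fold change) of each tested member of 20 gene lists in mD3AKO *soleus*, 1 point per gene, coloured by call, with the list median as a bar and the counts of members that rose and fell at the right. Rises made up 13 of 27 immediate early, 9 of 23 heat shock, 14 of 23 glucocorticoid and 5 of 14 Kruppel-like genes, shares whose differences were not tested. The lists of oxidative phosphorylation, ribosomal proteins and fiber types have medians close to 0 and 0 calls.

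The falls were smaller, and the largest was that of a receptor found on endothelium. *Aplnr*, the apelin receptor, was at 16.6, 27.9 and 44.9 CPM at rest and at 2.88, 3.83 and 8.31 CPM after exercise. All exercised mice lay below all rested mice, and the log2 fold change of -2.69 ± 0.29 (adjusted p = 4.22e-05) was the lowest among called genes. Among 23 genes of angiogenic signalling, 4 fell and 4 rose, and 1 fell and 3 rose under library totals. In males alone 3 rose, and in females alone 1 rose. Beside *Aplnr*, the falls were *Kdr*, the main VEGF receptor (-0.51 ± 0.09), *Tek*, the angiopoietin receptor (-0.44 ± 0.09), and *Vegfc*, a lymphatic growth factor (-0.66 ± 0.15). The rises were *Flt1*, the decoy VEGF receptor (0.43 ± 0.10), *S1pr1*, the sphingosine phosphate receptor of endothelium (1.07 ± 0.08), *Adamts1*, a secreted protease (1.26 ± 0.27), and *Hif3a*, a hypoxia factor at 1.11 CPM or less in all mice (1.76 ± 0.36). Without mouse 10, *Vegfc* (adjusted p = 0.054) and *Flt1* (adjusted p = 0.0555) were not called. Of the 4 falls, *Aplnr* was called in males alone and in females alone. *Kdr* was called in females alone and not in males, *Tek* in males alone and not in females, and *Vegfc* in neither. Of the 13 endothelium markers, 0 fell and 3 rose (*Esam*, *Robo4* and *Sox17*, by 0.36 to 0.74, the call of *Esam* being lost in 6 of the 13 fits that left out 1 mouse), with 1 rise under library totals, 0 in males alone and 1 in females alone, and their summed level was 542.9 to 713.6 CPM at rest and 536.5 to 656.0 CPM after exercise. Without mouse 15, *Cldn5*, of endothelial tight junctions, fell as well (log2 fold change -0.63, adjusted p = 0.0474), and it was not called with mouse 15 (-0.54, adjusted p = 0.134).

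Of 14 genes of Notch signalling, 2 fell and 2 rose, and 3 fell and 1 rose without mouse 15, and 1 fell and 0 rose under library totals. In males alone and in females alone 0 rose. *Hes1*, the transcriptional repressor induced by Notch, was at 24.6, 28.0 and 38.6 CPM at rest and at 10.9, 14.0 and 17.4 CPM after exercise, with separate groups (-1.13 ± 0.13, adjusted p = 9.78e-05). *Jag1*, a Notch ligand, fell by 0.57 ± 0.09 on the log2 scale, *Notch4*, the endothelial receptor, rose by 0.55 ± 0.10, and *Jag2*, another ligand, rose by 0.29 ± 0.07 and was not called in 9 of the 13 fits that left out 1 mouse, that without mouse 15 included (adjusted p = 0.071). *Dll4*, a ligand of endothelium, was called as falling without mouse 15 (-0.53, adjusted p = 0.0391) and not with it (-0.49, adjusted p = 0.0518). Of *Hes1* and *Jag1*, *Hes1* was also called in males alone and in females alone, and *Jag1* in neither. *Tnfsf10*, the death ligand TRAIL, was at 8.21, 10.1 and 11.3 CPM at rest and at 2.51, 3.12 and 3.65 CPM after exercise, the most even of the large falls (-1.66 ± 0.11, adjusted p = 5.94e-07). *G0s2*, an inhibitor of the lipase ATGL, was at 30.0, 41.6 and 82.8 CPM at rest and at 14.9, 16.7 and 24.2 CPM after exercise (-1.41 ± 0.22, adjusted p = 0.00142). In both genes all exercised mice lay below all rested mice. *Fam84b* was at 4.70, 6.50 and 7.47 CPM at rest and at 1.77, 1.93 and 2.27 CPM after exercise (-1.69), and *9930014A18Rik*, on the opposite strand with overlapping exons, had a log2 fold change of -1.85, so that the reads of these 2 genes cannot be told apart with certainty. *Rassf9* and *Rassf10*, of a family with Ras-association domains, fell by 1.39 ± 0.18 and 1.56 ± 0.22. *Ush1g*, a scaffold protein of hair cells (-1.91 ± 0.19), *Has3*, a hyaluronan synthase whose exons overlap *Chtf8* on the other strand (-1.43 ± 0.14), and *Prdm1*, a transcriptional repressor in lymphoid and myeloid cells (-1.28 ± 0.24), were low-abundance falls, each at 4.93 CPM or less in every mouse.

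4 others of the 15 largest falls are genes known from immune cells or from lipid signalling. *Cx3cr1*, the fractalkine receptor of monocytes and macrophages, was at 0.689, 1.58 and 4.80 CPM at rest and at 0.131, 0.652 and 0.982 CPM after exercise (-1.95 ± 0.48, adjusted p = 0.0338). The groups overlapped through mouse 15 alone, the other rested mice being at 1.10 CPM or more, and the call was lost in 7 of the 13 fits that left out 1 mouse. The annotated span of *Cx3cr1* also covers *Csrnp1* and *Xirp1* on the same strand. *Gpr34*, a lysophospholipid receptor of macrophages and microglia, was at 1.32, 2.29 and 4.96 CPM at rest and at 0.262, 0.57 and 1.29 CPM after exercise, with separate groups (-1.95 ± 0.36, adjusted p = 0.00538). *Ighm*, the immunoglobulin mu chain of B cells, was at 2.48, 6.49 and 13.4 CPM at rest and at 0.918, 2.22 and 3.25 CPM after exercise (-1.66 ± 0.35, adjusted p = 0.0142). *Lpar4*, a lysophosphatidic acid receptor, was at 1.10, 1.93 and 4.48 CPM at rest and at 0.402, 0.717 and 1.32 CPM after exercise (-1.56 ± 0.33, adjusted p = 0.014). In *Ighm* the highest exercised mouse lay inside the range at rest with and without mouse 15, and in *Lpar4* only through mouse 15, the other rested mice being at 1.42 CPM or more. Of the 14 immune cell markers, 10 could be tested and 0 were called, with a median log2 fold change of -0.27, and their summed level was 88.2 to 324.8 CPM at rest and 65.7 to 244.3 CPM after exercise. The T cell marker *Cd3e*, the B cell marker *Cd79a*, the natural killer cell marker *Nkg7* and the neutrophil marker *S100a8* were too low to test, at 0.528 CPM or less in every mouse. The part of such cells in these falls was not tested.

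Genes of connective tissue overlapped widely between the groups, and their lists were not tested as a whole. The 16 collagen chains all had log2 fold changes under 0, with a median of -0.43, but 0 were called, and their summed level spread from 1426 to 7476 CPM at rest and from 2112 to 4017 CPM after exercise. Without mouse 15 the collagen sum at rest was 2214 to 7476 CPM and the median log2 fold change was -0.56. The 8 fibroblast markers (median -0.40, 0 called) summed to 1693 to 5506 CPM at rest and 1675 to 3941 CPM after exercise. Without mouse 15 their sum at rest was 2182 to 5506 CPM and their median was -0.515. *Pdgfrb*, the receptor of pericytes, was the only gene called of 8 smooth muscle and pericyte markers, at -0.43 ± 0.11 (adjusted p = 0.0425), a call lost under library totals and in 10 of the 13 fits that left out 1 mouse. 0 of the markers of tendon, adipocytes, Schwann cells, blood cells and satellite cells were called.

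0 of 11 slow fiber genes, 0 of 13 fast fiber genes, 0 of 16 sarcomere genes and 0 of 42 cytosolic ribosomal proteins were called, and the list of 18 genes of gp130, STAT3 and SOCS feedback had 0 calls as well. The fast myosin *Myh4* varied most among the fast fiber genes, from 18.5 to 4356 CPM at rest and from 42.9 to 2113 CPM after exercise, with a log2 fold change of -0.72 ± 1.12 that did not pass the test. Of 12 mechanical stress genes of muscle, *Xirp1*, an actin-binding protein of stretched sarcomeres, rose by 1.59 ± 0.42 (adjusted p = 0.0462) and was not called without mouse 15 (adjusted p = 0.0774) or in 8 of the other 12 fits that left out 1 mouse, that without mouse 19 included. The list median was 0.60. Exercised mouse 19 stood apart in this list, with *Ankrd1*, a stretch-induced ankyrin repeat protein, at 309.1 CPM against 12.4 to 24.3 CPM in the other exercised mice and *Csrp3*, a protein of the Z-disc, at 3064 CPM against 448.3 to 767.1 CPM. The macrophage marker *Cd68* and the chemokine *Ccl2* were also highest in it, at 32.0 and 10.4 CPM against at most 4.05 and 0.43 CPM in the other exercised mice. Mitochondrial mRNA took 3.93% ± 0.635 (SD, n = 6) of counts after exercise and 3.67% ± 0.282 (SD, n = 7) at rest, a difference that did not pass the test (exact two-sided permutation test, p = 0.437). Among the 7 DNA methylation enzymes tested, *Tet2*, which oxidizes methylcytosine, was the only one called, at 25.9, 28.9 and 46.4 CPM at rest and 43.2, 49.5 and 61.5 CPM after exercise (0.55 ± 0.14, adjusted p = 0.0311), and was not called in 7 of the 13 fits that left out 1 mouse.

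The same response was then read in the WT mice, which share no animal with the mD3AKO groups. In a separate fit of 5 rested and 7 exercised WT mice, 617 of 15527 genes were called (3.97%). Of the 610 genes called in mD3AKO *soleus* that could be tested in WT, 605 (99.2%) changed in the same direction, against 65.3% of the 15210 genes tested in both genotypes. 363 of the 610 were called again in WT in the same direction (59.5% of them, and 58.8% of the WT calls), whereas 1.65% of the genes not called in mD3AKO were called in WT. 0 genes were called in opposite directions. Of the 613 genes called without mouse 15 and tested in WT, 606 changed in the same direction and 357 were called again. The median log2 fold change of the genes that rose was 0.85 in mD3AKO and 0.64 in WT, and that of the genes that fell and were tested in WT was -0.67 in mD3AKO and -0.57 in WT. 460 of the 610 had the larger change in mD3AKO, the genotype in which they were selected. The response itself was tested for a difference between genotypes in a fit of all 4 groups, and 0 of 16340 genes were called (edgeR's quasi-likelihood test), with 403 at an unadjusted p under 0.05 and a lowest adjusted p of 1.00. DESeq2 also called 0 genes, with 386 at an unadjusted p under 0.05, as did edgeR with sex as an additive term, with 452. The share of males differed between the groups compared, and its part in these values was not tested in a fit that lets the response differ by sex.

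The 5 genes with opposite signs were *Plk3*, *Tmem231*, *Accs*, *Dnah3* and *Hist1h4f*, and none of them was called in WT. Without mouse 15, *Plk3* and *Tmem231* were not called in mD3AKO either (edgeR, adjusted p = 0.0535 and 0.05035). *Dnah3*, a dynein chain of cilia, had the lowest unadjusted p for the difference: its log2 fold change was 1.65 in mD3AKO and -0.06 in WT, with levels of 0.201 to 0.689 CPM at rest and 0.675 to 1.95 CPM after exercise in mD3AKO. *Egr1*, an immediate early zinc finger factor, had 1.80 in mD3AKO and -2.26 in WT and was called in neither. *Tmem231*, *Gm8818* and *Gm43275* were next by unadjusted p. The value of *Gm8818* rests on exercised mouse 19, at 44.8 CPM against 0.368 to 0.807 CPM in the other exercised mD3AKO mice. For *Nr4a3*, *Slc25a25*, *Irs2* and *Aplnr* the WT log2 fold changes were 2.75, 2.63, 2.88 and -2.37, beside 3.50, 3.00, 2.76 and -2.69 in mD3AKO. For *Fosb*, *Klf2*, *Errfi1* and *Ighm* they were 0.06, 0.14, 0.60 and -0.42, beside 3.03, 1.15, 1.82 and -1.66, differences that did not pass the test across all genes. The value of *Fosb* in mD3AKO was 3.81 in males and 0.88 in females. The plot of both genotypes shows the called genes.

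**Figure D4:**
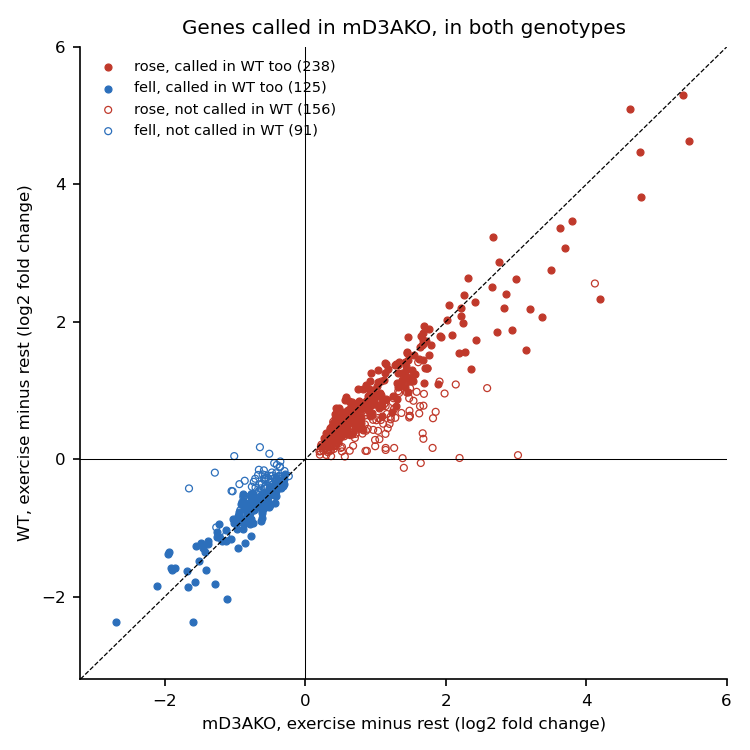
Exercise minus rest (log2 fold change) in mD3AKO (horizontal) and WT (vertical) for the 610 genes called in mD3AKO and tested in WT, 1 point per gene, filled where WT was called too (238 rises, 125 falls) and open where it was not, with the line of equal change dashed. Of the points, 605 lie in the quadrants of equal direction.

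Males and females were then compared, since the exercised mice differed in the size of their response. The mD3AKO males were numbered 7 to 19 and the females 2 to 6 or 21 to 24. Sex therefore cannot be told apart from the order of mouse numbers, whose meaning the labels do not give. 7 of 16336 genes (0.0429%) had a larger response in males than in females in a fit with 4 groups of sex and exercise (edgeR's quasi-likelihood test, adjusted p under 0.05), with 715 at an unadjusted p under 0.05. They were *Dnajb1*, the growth factor *Hbegf*, the matrix protein *Ccn1*, the immediate early factors *Egr1* and *Ifrd1*, the chromatin factor *Arid5b* and *Srxn1*, a sulfiredoxin of the NRF2 pathway. *Dnajb1* was at 8.75 to 8.84 CPM in the 4 rested males and 94.8 to 180.0 CPM in the 3 exercised males, against 8.18 to 10.5 CPM and 13.9 to 28.9 CPM in the 3 rested and 3 exercised females. Both sexes were separate from rest, and the male response was larger by 2.72 ± 0.34 on the log2 scale (adjusted p = 0.0186). *Ccn1* was at 21.3 to 32.5 CPM in rested and 135.5 to 200.1 CPM in exercised males, against 32.3 to 56.4 CPM and 26.2 to 63.1 CPM in females, whose groups overlapped, a difference of 2.75 ± 0.41 (adjusted p = 0.0347). *Egr1* was at 2.14 to 5.58 CPM in rested and 22.6 to 32.6 CPM in exercised males, against 5.58 to 8.30 CPM and 2.66 to 7.92 CPM in females, a difference of 3.67 ± 0.54 (adjusted p = 0.0347). *Hbegf*, *Arid5b*, *Srxn1* and *Ifrd1* differed by 2.83, 1.48, 1.45 and 1.29 on the same scale. The calls were unstable to single mice: 0 genes were called when mouse 15, 6, 8 or 12 was left out, 1, 2 and 3 when mouse 3, 2 or 10 was left out, and 15 when mouse 23 was left out. DESeq2 called 39, of which 38 had a higher log2 fold change in males than in females.

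Over the 614 genes called with both sexes together, 612 changed in the same direction in males and females. The median log2 fold change of the rises was 0.91 in males and 0.66 in females, and that of the falls was -0.72 in males and -0.66 in females. Of the 89 called members of the gene lists, 58 were called in males alone, 32 in females alone, 25 in both and 24 in neither (edgeR's quasi-likelihood test in fits of 1 sex, which hold fewer mice). In males and females alone, the rises were 2 and 0 for the atrophy list, 1 and 0 for glucose uptake and for DNA methylation enzymes, 1 and 1 for insulin and IGF signalling, 1 and 3 for the clock and 3 and 0 for mechanical stress, and library totals gave 0 for DNA methylation enzymes and mechanical stress and 1 for insulin and IGF signalling. Among the largest rises, *Nr4a2*, *Otud1* and *Dnajb1* also lost their calls in females alone (adjusted p = 0.0637, 0.0754 and 0.105). Among the largest falls, *Gpr34*, *9930014A18Rik*, *Rassf9*, *Rassf10* and *G0s2* lost theirs in females alone, *Prdm1* in males alone, and *Cx3cr1*, *Ighm* and *Lpar4* in both. In single mice, the 13 called immediate early factors had a median log2 level over the rest median of 3.91, 3.86 and 2.68 in the males 10, 17 and 19, and of 2.19, 1.41 and 0.612 in the females 23, 3 and 6. The 14 called glucocorticoid-responsive genes gave 1.66, 1.47 and 1.48 in the same males and 1.16, 1.25 and 1.26 in the females, a much narrower range. The 9 called chaperones gave 1.29 to 1.40 in males and 0.530 to 0.830 in females, and the 15 largest falls -1.84 to -1.69 and -1.66 to -1.23. The lists share 0 genes, and since the genes were selected for being called in these mice, the values describe how the mice differ and not how large the response is.

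**Figure D5:**
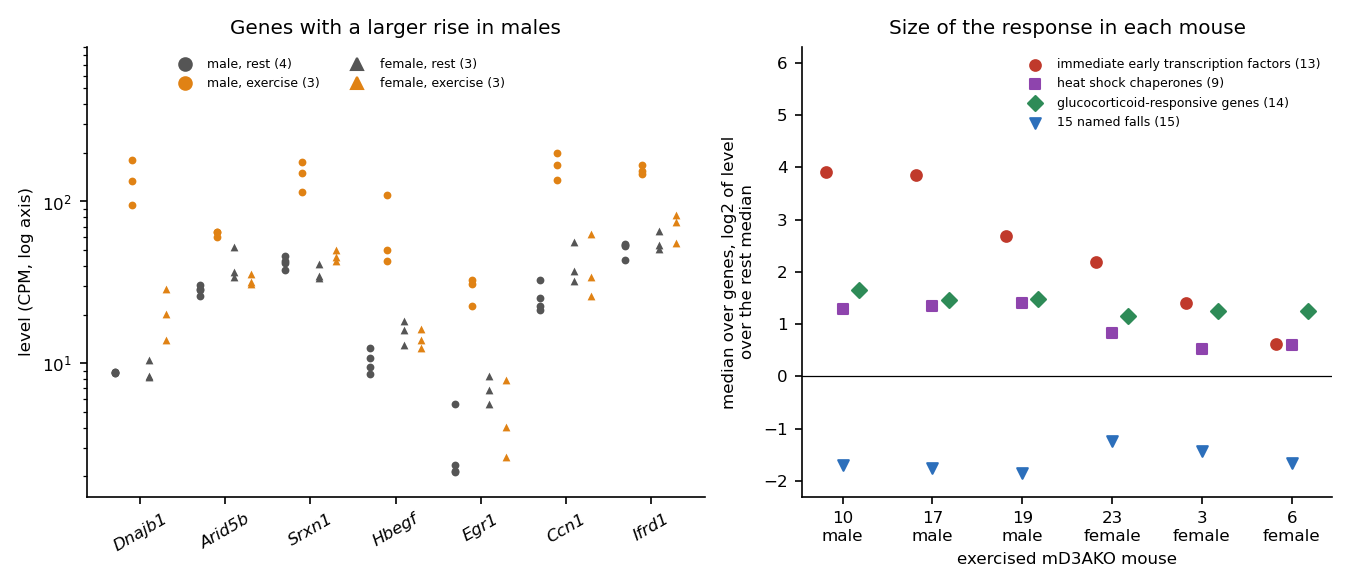
Left, levels (CPM, log axis) of the 7 genes with a larger response in males, in single mD3AKO mice at rest (grey) and after exercise (orange), circles for males and triangles for females; right, the median log2 level over the rest median for 4 sets of called genes in each exercised mouse. Exercised males lie above exercised females for each of the 7 genes, and the immediate early set ranges from 0.612 to 3.91 while the glucocorticoid set stays between 1.16 and 1.66.

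The genes that rose were somewhat shorter in the genome than the rest. Their median span was 17424 bases, against 20268 bases for the genes that fell and 20878 bases for all genes tested, while the median exonic lengths were 4118, 4262.5 and 3985 bases. Genes with a single exon made up 11.9% of the rises, 8.64% of the falls and 9.29% of all genes tested, and protein-coding genes 84.3%, 93.6% and 86.3%. These are descriptions over genes and carry no test.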

How the data were processed

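RNA of the *soleus* of 25 mice was sequenced, and 13 libraries of mD3AKO mice form the main comparison. Ribosomal RNA was depleted and stranded total RNA libraries were read as 75-bp paired ends. The submitters' processing notes name FastQC 0.11.5, STAR 2.5.3a and featureCounts 1.5.3, the genome was mm10 and the annotation GENCODE release 15. The authors deposited raw counts per gene and library, without normalization. The strand setting of counting is not given in the sources used here, so overlapping and antisense genes can hold reads of each other. 52403 of 52636 gene IDs were matched to a symbol.

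Groups were taken from the sample labels. Counts were tested with edgeR's quasi-likelihood test (edgeR 4.0.16, limma 3.58.1, R 4.3.3; glmQLFit, not robust) with TMM normalization and filterByExpr (minimum count 10, minimum total 15), which kept 15408 genes with 99.9% of counts. Adjustment followed Benjamini and Hochberg over all genes tested, with calls at an adjusted p under 0.05. Each standard error was obtained from the fold change and its F statistic (log2 fold change over the root of F). CPM used TMM library sizes. The 36 replicate pairs all differed beyond sampling noise, and 0 were identical. The labels number the mice but do not say how they were housed or processed, so the p-values measure the spread between these mice. The scripts were tested on simulated data.

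Genes are named as the 15 largest rises and 15 largest falls among genes called with and without mouse 15 at a mean log2 CPM of at least 0, as members of lists where a list is described, and as genes called for a difference between sexes or, where 0 were called, by the lowest p. *Sik1*, *Ccn2*, *Plk3*, *Accs* and *Hist1h4f* are called genes named outside these rules. 1 of the 15 falls is not reported here. *Fosb*, *Klf2*, *Errfi1* and *Ighm* were set beside WT after their values were seen. The members and lists were chosen with earlier results of these data known. Alternatives were RLE scaling, library totals, robust fitting, other filters, ribosomal RNA left out, sex and mouse number terms, single sexes, all 25 libraries, DESeq2 1.42.0, limma voom, and each mouse left out. Promoters came from RefSeq (GRCm38.p6).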

Additional observations from a re-analysis of the deposited data

Results flagged for a closer look

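In 68 groups of 6 or 7 mD3AKO mice, the highest and lowest mouse of each group was compared with the rest of its group, and 9 groups held a mouse far from the others. Were the values normally distributed, chance would give such a gap in about 1 of 20 groups. Their distribution was not tested.

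Mouse 15 stood apart at rest in 3 values. Its ribosomal RNA took 39.5% of counts, against 8.19% to 10.5% in the other 6 rested mice. Its mitochondrial mRNA took 6.068% of the counts without ribosomal RNA, against 3.661% to 4.522%. *Gm42615*, which lies in the span of *Ppargc1a*, was at 0.6202 CPM in it and at 0.08646 to 0.2871 CPM in the others. At rest, *Nr4a3* was at 3.343 CPM in mouse 2 and 1.585 to 2.10 CPM in the others, and *Dnajb1* at 10.49 CPM in mouse 21 and 8.183 to 8.838 CPM in the others. Both values stayed below those of every exercised mouse.

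After exercise, mitochondrial mRNA took 5.191% of counts in mouse 17 and 3.518% to 3.935% in the other 5 mice, and 5.885% against 3.953% to 4.381% with ribosomal RNA left out. *Aplnr* was at 8.314 CPM in mouse 23 and 2.878 to 4.21 CPM in the others, and *Ush1g* at 0.9834 CPM in mouse 6 and 0.595 to 0.7363 CPM in the others. For both genes these mice were the ones closest to rest.

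The response differed between the sexes in 7 genes by edgeR's test of the difference. Males exceeded females on the log2 scale by 2.722 for *Dnajb1*, 1.477 for *Arid5b*, 1.454 for *Srxn1*, 2.833 for *Hbegf*, 3.675 for *Egr1*, 2.745 for *Ccn1* and 1.293 for *Ifrd1*. Each group of sex and exercise held 3 or 4 mice. Sex cannot be told apart from the order of mouse numbers, and the reason for the difference was not tested.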

How the results depend on the processing

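The count of 614 genes lay between 551 and 672 under RLE scaling, a robust fit, either change of the expression filter, removal of ribosomal RNA genes, sex or blocks of mouse numbers as an additive term, and limma voom. It was 246 with library totals alone (78.5% of calls rising, against 64.2%), 327 in males only (82.6% rising), 125 in females only (77.6% rising), 984 in the fit of all 25 libraries and 896 with DESeq2. Fewer mice entered the fits of 1 sex, and the cause was not tested for the other settings. Leaving out single mice gave 437 (without mouse 17) to 620 (without mouse 23). Males without mouse 15 gave 241 calls, a setting chosen after seeing the data, as was sex as an additive term without mouse 15, which gave 667. The 30 named rises and falls kept their direction in all 839 values over 28 settings and were called in 801. Lost calls were 16 in females only, 5 in males only, 6 in males without mouse 15, *Fosb* and *Hspa1b* under voom, and *Cx3cr1* under library totals, under the mouse number blocks and in 7 fits without 1 mouse. The genotype difference was called for 0 genes under DESeq2, with sex as an additive term, and in all 25 fits without 1 mouse (328 to 620 at an unadjusted p under 0.05). The 7 calls for sex became 39 with DESeq2 and 0 to 15 without single mice. The difference in the share of ribosomal RNA, -3.48 percentage points, ranged from -4.38 to 0.834 without single mice and turned positive without mouse 15. That of mitochondrial mRNA, 0.259, ranged from 0.00709 to 0.342, and that with ribosomal RNA left out, 0.0408, from -0.261 to 0.329, turning negative without mouse 17 (-0.261), 21 (-0.0718), 2 (-0.0547) or 24 (-0.0531). No paired analysis was possible because each mouse has its own number and no number is shared between groups. A gene near 1 CPM rests on few reads per library, so the spread of low genes includes a large counting error.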
